A study of Mus musculus with 8 samples.

Results

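The genes described here are the mRNAs of the cytosolic translation initiation factors (eIFs) and elongation factors (eEFs) in mouse lung tumors with and without a guide RNA against *Setd2*. The family was picked for description with earlier results of these data known, and its members were then taken by name. Members were the protein-coding rows of the count table whose Ensembl identifier maps, in GENCODE release M21, to a symbol that begins with Eif1 to Eif6 or with Eef1 or Eef2, with 3 genes of these families left out by the same rule. This gave 64 members among the 48709 genes of the table, and the naming rule used no expression value. The members were sorted into 11 complexes or functional groups by textbook knowledge of the proteins.

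Initiation begins when eIF2, loaded with GTP, brings the initiator tRNA to the small ribosomal subunit together with eIF1, eIF1A, eIF3 and eIF5. The eIF4F complex binds the cap of an mRNA and unwinds its leader, and after the start codon is found the large subunit joins and the factors leave. eEF1A then delivers each aminoacyl-tRNA to the ribosome and eEF2 moves the ribosome along the message. Stress kinases slow initiation by phosphorylating eIF2, which blocks its exchange factor eIF2B, and mTORC1 raises the activity of eIF4F and favors the translation of mRNAs that begin with a terminal oligopyrimidine (TOP) tract, among them several elongation factor mRNAs.

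RNA from 8 tumors of the *K* model was compared, 4 *K-Ctrl* and 4 *K-Setd2KO*. All 8 arose in mice of a mixed B6J/129S4vJae background, in which Cre recombinase starts lung tumors, after delivery of the lentiviral vector LentiCRISPRv2Cre into the airway, and the labels give neither age nor sex. The vector carried a control guide against *GFP* (sgGFP) in *K-Ctrl* and a guide against *Setd2* in *K-Setd2KO*. *Setd2* encodes the enzyme that trimethylates lysine 36 of histone H3. The guide acts only in cells that took up the vector, so a *K-Setd2KO* tumor can hold host cells with an intact gene, and which lung cells took up the vector was not measured here. The study describes the *K-Setd2KO* tumors as low-grade adenomas compared with stage-matched controls. The series is described as flash-frozen tumors, although its RNA extraction text mentions cell lines. The labels do not say whether the tumors of a group came from separate mice, so the p-values measure the spread between these tumors only.

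Total counts ranged from 5806599 to 21290402 per tumor, a 3.67-fold range, and the shallowest library was *K-Setd2KO* replicate 4. *Setd2* itself reached 140.1 ± 8.81 CPM (read counts relative to library size, adjusted by the trimmed mean of M-values, TMM) in the *K-Ctrl* tumors and 136 ± 15.5 CPM in the *K-Setd2KO* tumors (SD, n = 4 each, edgeR adjusted p = 0.824). A guide that shifts the reading frame need not lower the mRNA, so this count does not check the knockout. Markers of epithelium and alveolar type 2 cells were present in every tumor, at 2020 to 3599 CPM and 43767 to 73620 CPM in sum. These sums overlapped between the groups, but 3 of the 12 markers were called higher in *K-Setd2KO* tumors by edgeR, *Epcam* (log2 fold change 0.90), *Krt18* (0.84) and *Sftpb* (1.09). The summed markers of 3 other cell types did not overlap between the groups. The 5 leukocyte markers summed to 417 to 836 CPM in the *K-Ctrl* tumors and 145 to 199.8 CPM in the *K-Setd2KO* tumors (4 of 5 called lower), the 7 macrophage markers to 474 to 1447 and 159.9 to 315 CPM (4 of 7 called lower), and the 6 T cell markers to 41.9 to 98.2 and 6.55 to 30.8 CPM (1 of 6 called lower), and none of these markers was at 0 in all tumors. The sums overlapped for endothelium (476 to 1839 and 187 to 488 CPM, 2 of 6 called lower), alveolar type 1 cells (1433 to 3176 and 1135 to 1767 CPM, 2 of 6 called lower), fibroblasts (496 to 1120 and 141 to 583 CPM, 1 of 5 called lower) and ciliated cells (169 to 244 and 124 to 237 CPM, 1 of 4 called lower). All 5 erythroid markers had an unadjusted edgeR p under 0.05 on the lower side and 0 were called. The lists for club cells (median log2 fold change -1.23, 1 of 3 tested lower at an unadjusted edgeR p under 0.05), B cells (-1.996, 2 of 4), smooth muscle (-1.02, 3 of 5) and neurons (-1.70, 1 of 1) also held 0 called markers. So did the lists for neutrophils and striated muscle, whose medians were above 0. The neutrophil median was 0.54, with 4 of 5 above 0 and 1 higher at an unadjusted edgeR p under 0.05, and that of striated muscle was 0.074. Fewer cells of a type and less RNA per cell cannot be told apart in such bulk samples. By *Xist* and Y-linked genes, 1 *K-Ctrl* tumor and 3 *K-Setd2KO* tumors were female. The part of these differences in the results for the members was not tested.

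Of the 64 members, 60 had enough counts for a test. In *K-Setd2KO* tumors 3 of the 60 were higher, *Eif2ak4*, *Eif2b1* and *Eif5*, and 0 were lower, by edgeR's quasi-likelihood test with Benjamini-Hochberg adjustment over 14929 genes and an adjusted p under 0.05, which is meant by called hereafter. This is 5% of the members tested, against 12.7% of all tested genes called in either direction, of which 4.97% were higher and 7.74% lower. At an unadjusted edgeR p under 0.05 the members counted 9 higher and 1 lower, where all tested genes gave 13.6% and 16.3%. DESeq2 called 5 higher and 0 lower (background 21.5%), adding *Eif3j2* and *Eif4a2*, and limma voom called 3 higher and 0 lower (background 11.8%). The share called higher by edgeR was thus close to that of all genes, while the members had 0 genes called lower.

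The members leaned to one side by small amounts. Of the 60, 50 had a log2 fold change above 0 (83.3%, against 52.7% of all tested genes), and their median was 0.14 against 0.029 for all genes. The share above 0 was 68.3% with sex as a term (51.9% of all genes), and with 1 tumor left out it lay between 67.2% without *K-Setd2KO* replicate 4 (50.6% of all genes) and 86.9% without *K-Setd2KO* replicate 3 (51.3%). The values ran from -0.32 for *Eef1akmt1* to 0.62 for *Eif5a2*. No member changed over 2-fold by its estimate, and for 59 of 60 the whole 95% interval lay within 2-fold. *Eif5a2* was the exception, with an interval that reached 1.23 on the log2 scale. Members whose 4 *K-Setd2KO* tumors all lay above the 4 *K-Ctrl* tumors numbered 7 (background 9.06% of all tested genes). These were *Eif2ak4*, *Eif2b1*, *Eif2b2*, *Eif3g*, *Eif3k*, *Eif4a2* and *Eif5*. The reverse held for 0 members (background 11.2%).

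**Figure D1:**
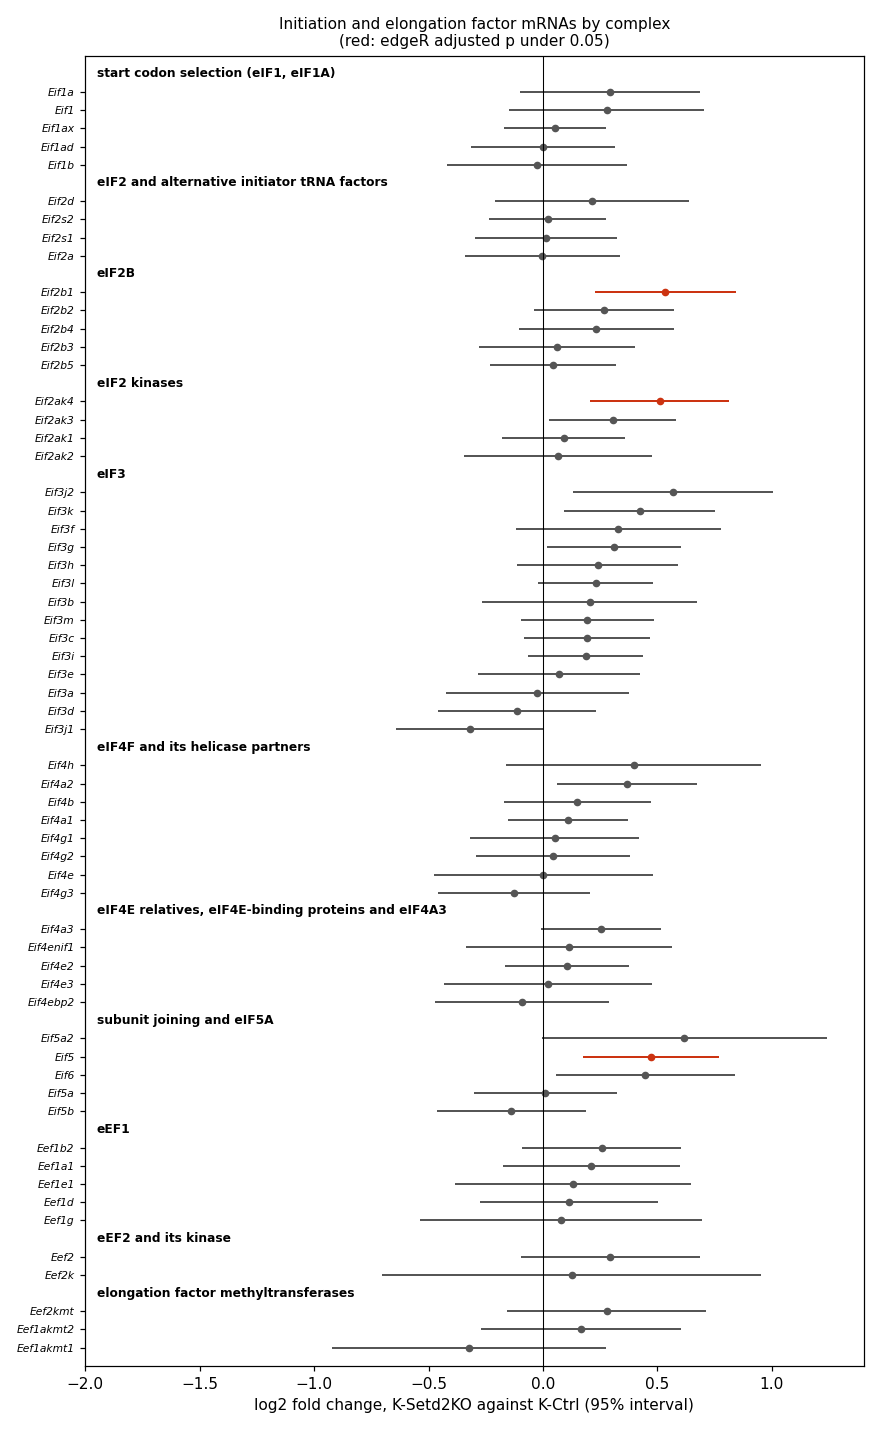
Log2 fold change of each of the 60 tested members in *K-Setd2KO* against *K-Ctrl* tumors (n = 4 each), with bars for the 95% interval of the edgeR fit, grouped by complex and sorted within it. The 3 called members, in red, lie at 0.47 to 0.53, and 50 of the 60 points lie to the right of 0.

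The first called member was *Eif2ak4* (chromosome 2, 118388618 to 118475234, plus strand, GRCm38), which encodes GCN2, the eIF2 kinase that responds to uncharged tRNA. It was at 51.3, 53.2, 58.95 and 63.2 CPM in *K-Ctrl* replicates 1 to 4 and at 75.3, 89.6, 90.1 and 67.4 CPM in *K-Setd2KO* replicates 1 to 4. The lowest *K-Setd2KO* tumor, replicate 4, stood just above the highest *K-Ctrl* tumor, also replicate 4. The log2 fold change was 0.51 (SE 0.133, 95% interval 0.21 to 0.81, edgeR adjusted p = 0.0373).

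*Eif2b1* (chromosome 5, 124570213 to 124579131, minus strand) encodes the alpha subunit of eIF2B, one of the regulatory subunits through which phosphorylated eIF2 inhibits the exchange factor. Its CPM values were 22.4, 22.9, 20.5 and 25.3 among the controls and 33.4, 28.00, 36.4 and 34.2 among the *K-Setd2KO* tumors, again with no overlap. The log2 fold change was 0.53 (SE 0.135, 95% interval 0.23 to 0.84, edgeR adjusted p = 0.0338).

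*Eif5* (chromosome 12, 111538101 to 111546753, plus strand) encodes the protein that makes eIF2 hydrolyze its GTP when the start codon is met. It measured 385, 426, 396 and 419.9 CPM in the *K-Ctrl* tumors and 497, 628, 627 and 503 CPM in the *K-Setd2KO* tumors. Replicates 1 and 4 of *K-Setd2KO* were close to each other and lower than replicates 2 and 3, and all 4 exceeded every *K-Ctrl* tumor. The log2 fold change was 0.47 (SE 0.130, 95% interval 0.18 to 0.76, edgeR adjusted p = 0.0455).

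These 3 calls were close to the threshold. The number of called members was 0 when *K-Ctrl* replicate 1, 2 or 3 or *K-Setd2KO* replicate 1 or 3 was left out, 1 (*Eif2b1*) without *K-Setd2KO* replicate 2, 2 (*Eif2ak4* and *Eif5*) without *K-Setd2KO* replicate 4, and 3 without *K-Ctrl* replicate 4, where *Eif3j2* was called in place of *Eif5*. In the 5 fits without a called member, 5.09% to 9.35% of all genes were called, and in the other three 13.6%, 9.03% and 12.7%, so calls over all genes were also fewer in most of them than the 12.7% above. Over these 8 fits, the log2 fold changes stayed at 0.45 to 0.58 for *Eif2ak4*, 0.48 to 0.60 for *Eif2b1* and 0.41 to 0.53 for *Eif5*, with edgeR adjusted p up to 0.105, 0.106 and 0.127. With sex as a term, 1 member (*Eif2ak4*) and 8.29% of all genes were called, and with no filter on low counts 0 members and 5.71% of all genes. With at least 10 counts required in every tumor, *Eif5* was no longer called (edgeR adjusted p = 0.0558) while 13.9% of all genes were. Within males, with 3 *K-Ctrl* tumors and 1 *K-Setd2KO* tumor, the log2 differences were 0.64 for *Eif2ak4*, 0.68 for *Eif2b1* and 0.65 for *Eif5*. Within females, with 1 and 3 tumors, they were 0.53, 0.47 and 0.34. As the 4 tumors of each group do not overlap for these genes, every such difference is above 0 by construction.

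**Figure D2:**
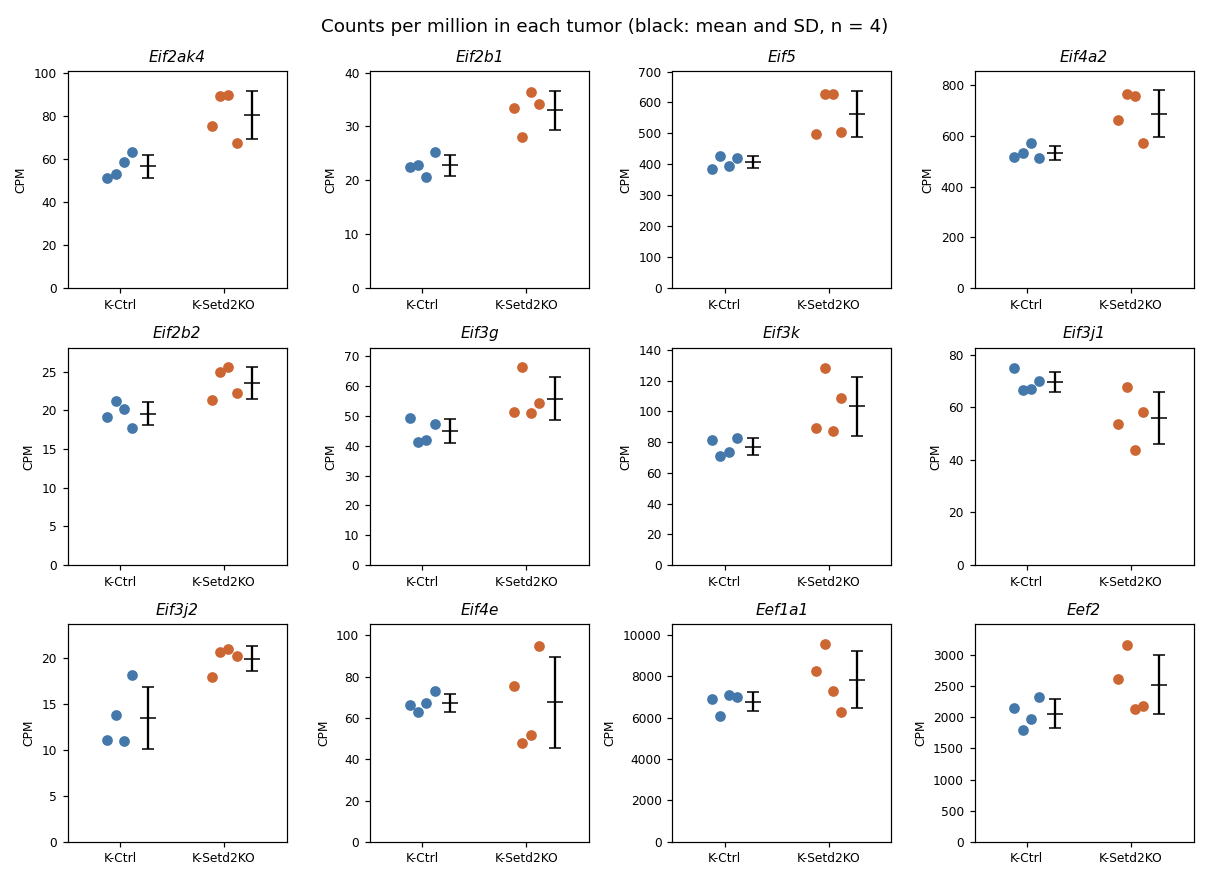
CPM of 12 members in each tumor, one panel a gene with its own vertical axis from 0, blue points for *K-Ctrl* and orange for *K-Setd2KO* with replicates 1 to 4 from left to right, and black bars for the mean and SD (n = 4). The groups do not overlap for *Eif2ak4*, *Eif2b1*, *Eif5*, *Eif2b2*, *Eif3g*, *Eif3k* and *Eif4a2*, while the *Eif4e* panel shows a wide spread in *K-Setd2KO* around an equal mean.

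Promoter sequence is shown for these 3 genes because they are the members that passed the test. In RefSeq start-site sequences (GRCm38.p6), 49 members had an entry, with 64 start sites in all. A GC box (GGGCGG on either strand) lay in the 250 bases upstream of 65.6% of the member start sites, against 32.7% of the 32851 start sites of all genes. Each of the 3 called genes had at least 1, and the nearest one that lies wholly upstream of the start is printed here 5′ to 3′ on the strand of the gene with the GC box in capitals:
*Eif2ak4*, chr2:118388475-118388504, 124 bases upstream of its first start: cagctcgagactCCGCCCccaggttcgtct
*Eif2b1*, chr5:124579146-124579175, 26 bases upstream: ctccgtgaagcgCCGCCCacgggccaaggc
*Eif5*, chr12:111538060-111538089, 23 bases upstream: ccaggaagtggaGGGCGGagaagcgtgaga
The *Eif2b1* window lies in the first exon of *Gtf2h3*, which is read in the opposite direction, and the *Eif5* window lies before the start of the gene in the count table but within the first exon (chr12:111538016-111538239) of a longer *Eif5* transcript in GENCODE M21. *Eif2b1* had a second GC box farther upstream. A further match to CCGCCC spans the first *Eif2ak4* start itself, and a second *Eif2ak4* start had no GC box upstream. Other motifs in the same 250 bases were the cyclic AMP response element core TGACG (42.2% of member starts, 17.8% of all), the E-box CACGTG (20.3% and 6.02%), the ETS site CCGGAAG (18.8% and 6.91%) and CCAAT (23.4% and 33.9%), each counted on both strands. None of the 5 motifs contains another, although matches can overlap at their ends. These are matches of letters and were not tested for binding, and start sites of all genes include genes of every class.

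The remaining eIF2 kinases all had log2 fold changes above 0 and none was called. *Eif2ak3* encodes PERK, the kinase of the endoplasmic reticulum stress response. It was at 44.8, 45.1, 45.7 and 55.3 CPM in the *K-Ctrl* tumors and 58.3, 51.8, 63.3 and 62.3 CPM in the *K-Setd2KO* tumors (log2 fold change 0.30 with SE 0.122, edgeR adjusted p = 0.132). *K-Ctrl* replicate 4 overlapped with *K-Setd2KO* replicate 2. The gene lies on chromosome 6, whose 839 tested genes had a median log2 fold change of 0.27, and *K-Setd2KO* replicate 2 was also the only *K-Setd2KO* tumor without a raised chromosome 6 median (-0.034, against 0.33, 0.32 and 0.38 in replicates 1, 3 and 4), and the part of this in the *Eif2ak3* value was not tested. *Eif2ak1*, the heme-regulated kinase HRI, had a log2 fold change of 0.090 and *Eif2ak2*, the double-stranded RNA kinase PKR, one of 0.065. The median of the 4 kinases was 0.20.

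All 5 eIF2B subunits had log2 fold changes above 0, with a median of 0.23. This median was 0.13 after removal of length and GC trends, and 0.17 both with sex as a term and without *K-Setd2KO* replicate 2. The estimates of the regulatory subunits were larger than those of the catalytic ones, a difference that was not tested. *Eif2b2*, the beta subunit, was at 19.2, 21.2, 20.2 and 17.7 CPM in the *K-Ctrl* tumors and 21.3, 24.9, 25.7 and 22.2 CPM in the *K-Setd2KO* tumors (log2 fold change 0.27 with SE 0.134, edgeR adjusted p = 0.217). Its groups did not overlap, although the lowest *K-Setd2KO* tumor was almost level with the highest control, and it was not called. *Eif2b4*, the delta subunit, had a log2 fold change of 0.23. The catalytic subunits *Eif2b3* (gamma) and *Eif2b5* (epsilon) had 0.060 and 0.044, with 95% intervals of -0.28 to 0.40 and -0.23 to 0.31. *Eif2b5* was the highest of the 5 per kilobase of exon, at 12.8 CPM per kilobase.

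The mRNAs of the alpha and beta subunits of eIF2, the substrate of both groups, differed little. These were the only eIF2 subunits among the members. *Eif2s1*, the alpha subunit of eIF2 that the kinases phosphorylate, was at 76.1, 95.5, 89.3 and 87.3 CPM in the *K-Ctrl* tumors and 98.7, 83.8, 71.1 and 97.7 CPM in the *K-Setd2KO* tumors. The 2 groups overlapped along most of their range and the log2 fold change was 0.013 (95% interval -0.29 to 0.32). *Eif2s2*, the beta subunit, had 0.020 (95% interval -0.23 to 0.27). *Eif2a* and *Eif2d* encode separate proteins that can bring initiator tRNA to the ribosome without eIF2, and their log2 fold changes were -0.0039 and 0.21. None of the 4 was called and their median was 0.016. It was -0.017 with at least 10 counts required in every tumor and 0.10 after removal of length and GC trends.

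Among the start codon selection factors, *Eif1* and *Eif1a* had the larger estimates. *Eif1a* was at 114, 145, 158 and 116 CPM in the *K-Ctrl* tumors and 189.7, 121, 162 and 179.7 CPM in the *K-Setd2KO* tumors (log2 fold change 0.29 with SE 0.172, edgeR adjusted p = 0.289). *Eif1*, whose protein guards against wrong start codons, was at 286 ± 27.4 and 346 ± 90.5 CPM (SD, n = 4 each), and the wide spread in *K-Setd2KO* came from replicate 2 at 464 CPM and replicate 4 at 244 CPM. *Eif1ax*, the X-linked gene for eIF1A, had a log2 fold change of 0.053 with the narrow 95% interval -0.17 to 0.27. *Eif1b* and *Eif1ad* had -0.026 and -0.000079, both near 0. None of these 5 was called.

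eIF3 is the large scaffold that holds the small ribosomal subunit and the mRNA together, and its 14 genes had a median log2 fold change of 0.20. None was called, 11 were above 0 and 3 below, and at an unadjusted edgeR p under 0.05 it held 3 higher and 1 lower. *Eif3k* was at 81.3, 70.8, 73.5 and 82.5 CPM in the *K-Ctrl* tumors and 89.2, 128, 87.1 and 109 CPM in the *K-Setd2KO* tumors (log2 fold change 0.42 with SE 0.144, edgeR adjusted p = 0.0851). *Eif3g* was at 49.2, 41.2, 42.1 and 47.5 CPM in the controls and 51.2, 66.3, 51.03 and 54.4 CPM with the *Setd2* guide (log2 fold change 0.31 with SE 0.129, edgeR adjusted p = 0.144). Neither overlapped between the groups, and in both *K-Setd2KO* replicate 2 was the highest tumor. Replicate 2 was also the highest for *Eif3h* and *Eif3f*. *Eif3h*, the highest of the complex per kilobase (218 CPM per kilobase), was at 384 CPM there and at 262 to 274.5 CPM in the other three *K-Setd2KO* tumors, against 220 to 272 CPM in *K-Ctrl*. The core subunits *Eif3a*, *Eif3b* and *Eif3c* had log2 fold changes of -0.025, 0.20 and 0.19. *Eif3d*, which can bind the cap of some mRNAs, had -0.11.

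The loosely bound subunit eIF3j is encoded by *Eif3j1* and *Eif3j2*, and the estimates of these copies were of opposite sign. *Eif3j2* (chromosome 18, 43475418 to 43477796, minus strand) was at 11.1, 13.8, 10.99 and 18.1 CPM in the *K-Ctrl* tumors and 17.9, 20.7, 21.04 and 20.2 CPM in the *K-Setd2KO* tumors (log2 fold change 0.57 with SE 0.192, edgeR adjusted p = 0.0833). Only *K-Ctrl* replicate 4 reached the *K-Setd2KO* range. *Eif3j1* (chromosome 2, 122028546 to 122056598, plus strand) was at 74.97, 66.6, 66.9 and 70.1 CPM in the *K-Ctrl* tumors and 53.5, 67.5, 43.8 and 58.2 CPM in the *K-Setd2KO* tumors (log2 fold change -0.32 with SE 0.141, edgeR adjusted p = 0.164), the one member with an unadjusted p under 0.05 on the lower side. Here *K-Setd2KO* replicate 2 overlapped the controls. The copies share sequence. Of the 75-base windows, 87.4% of those of *Eif3j2* transcripts and 51.0% of those of *Eif3j1* also occur in other genes. For each copy, the gene that shared most windows was the other copy, so the split of reads between them is uncertain. Their sum was 83.1 ± 4.79 CPM in the *K-Ctrl* tumors and 75.7 ± 9.98 CPM in the *K-Setd2KO* tumors (SD, n = 4 each), and the sums overlapped. The share of the sum counted to *Eif3j2* was 12.9% to 20.5% in the controls and 23.4% to 32.4% in the *K-Setd2KO* tumors, with no overlap. This pair was singled out after its values were seen.

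eIF4F comprises the cap-binding protein eIF4E, the scaffold eIF4G and the helicase eIF4A. Its 8 genes, helicase cofactors included, had a median log2 fold change of 0.080. This median was -0.018 with sex as a term and 0.14 after removal of length and GC trends. Of the 8 genes, 7 were above 0, none was called by edgeR, and 1, *Eif4a2*, was higher at an unadjusted p under 0.05. *Eif4e* was at 66.2, 62.9, 66.99 and 73.1 CPM in the *K-Ctrl* tumors and 75.5, 47.96, 51.7 and 94.99 CPM in the *K-Setd2KO* tumors. The controls were close together, while *K-Setd2KO* replicates 1 and 4 lay above all of them and replicates 2 and 3 below. Its log2 fold change was 0.0020 (95% interval -0.47 to 0.48). *Eif4a2* was the helicase gene with the larger estimate, at 517, 534, 572 and 513 CPM in the *K-Ctrl* tumors and 662, 766, 758 and 572 CPM in the *K-Setd2KO* tumors (log2 fold change 0.37 with SE 0.134, edgeR adjusted p = 0.101). The lowest *K-Setd2KO* tumor and the highest control were level to 3 digits. *Eif4a1*, the other eIF4A gene, had 0.11 (95% interval -0.15 to 0.37). The scaffold *Eif4g1* had 0.052, *Eif4g3* -0.13 and *Eif4g2*, whose product lacks the eIF4E-binding part, 0.045. Both helicase cofactors had estimates above 0. *Eif4b* was at 559, 435, 566 and 607 CPM in the *K-Ctrl* tumors and 569, 647, 639.7 and 547 CPM in the *K-Setd2KO* tumors (log2 fold change 0.15, edgeR adjusted p = 0.515). *Eif4h* was at 337, 335, 339.8 and 439 CPM in the controls and 585, 636, 406 and 281 CPM with the *Setd2* guide (log2 fold change 0.40, edgeR adjusted p = 0.314), and *K-Setd2KO* replicate 4 was the lowest of the 8 tumors for this gene and replicate 2 the highest.

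The group of eIF4E relatives, eIF4E-binding proteins and *Eif4a3* included 5 tested genes, none called. Its median of 0.11 turned to -0.12 without *K-Setd2KO* replicate 2. *Eif4a3*, which marks exon junctions, was at 67.6, 65.5, 66.99 and 76.8 CPM in the *K-Ctrl* tumors and 83.7, 92.2, 81.6 and 72.4 CPM in the *K-Setd2KO* tumors (log2 fold change 0.25 with SE 0.114, edgeR adjusted p = 0.172). *Eif4e2*, the repressive cap-binding homolog, had a log2 fold change of 0.11, *Eif4enif1*, which carries eIF4E to the nucleus and to processing bodies, 0.11, and *Eif4ebp2*, an inhibitor that mTORC1 switches off, -0.092. *Eif4e3*, on chromosome 6, had 0.022. *Eif4e1b*, an oocyte form, had 0 counts in all 8 tumors, which allows up to 0.138 CPM in the deepest and 0.513 CPM in the shallowest library (3 counts, counting error only). *Eif4ebp3* had 0 to 9 counts per tumor and was not tested.

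The group of subunit joining factors and eIF5A had the highest median of the 11, 0.45, which is the value of *Eif6*. The median SE of the group was 0.143, against 0.150 over all tested members, and its widest was that of *Eif5a2*. Beside *Eif5*, *Eif6*, whose product keeps the large subunit from joining too early, was at 21.7, 25.5, 25.5 and 30.9 CPM in the *K-Ctrl* tumors and 34.2, 41.2, 38.7 and 26.9 CPM in the *K-Setd2KO* tumors (log2 fold change 0.45 with SE 0.171, edgeR adjusted p = 0.117). *K-Setd2KO* replicate 4 fell among the controls. *Eif5a2*, a second gene for the elongation factor eIF5A, was at 26.3, 21.3, 27.01 and 21.7 CPM in the *K-Ctrl* tumors and 57.4, 25.2, 40.7 and 24.1 CPM in the *K-Setd2KO* tumors (log2 fold change 0.62 with SE 0.274, edgeR adjusted p = 0.167). Replicates 1 and 3 of *K-Setd2KO* were far above the controls and replicates 2 and 4 were within them. *Eif5a* itself, whose protein carries the modified lysine hypusine, had 0.010 (95% interval -0.30 to 0.32), and *Eif5b*, the GTPase that joins the subunits, -0.14.

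*Eef1a1*, which encodes the carrier of aminoacyl-tRNA, was the most abundant member. It was at 6925, 6109, 7111 and 6994 CPM in the *K-Ctrl* tumors and 8257, 9565, 7288 and 6288 CPM in the *K-Setd2KO* tumors (log2 fold change 0.21 with SE 0.170, edgeR adjusted p = 0.441). *K-Setd2KO* replicates 1 to 3 lay above every control and replicate 4 was below 3 of the 4. It took 0.633% to 0.723% of all counts in the controls and 0.633% to 0.900% in the *K-Setd2KO* tumors. The exchange factor subunits *Eef1b2*, *Eef1d* and *Eef1g* had log2 fold changes of 0.26, 0.11 and 0.079, with edgeR adjusted p of 0.294, 0.697 and 0.873. *Eef1e1*, a part of the tRNA synthetase complex, had 0.13. All 5 tested genes were above 0, with a median of 0.13, and none was called. The median was 0.25 without *K-Setd2KO* replicate 3 and 0.23 without *K-Ctrl* replicate 4. *Eef1a2*, the muscle and neuron form, had 0 to 4 counts in the controls and 0 in all *K-Setd2KO* tumors, and was not tested.

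*Eef2*, which moves the ribosome one codon at a time, was at 2155, 1791, 1980.2 and 2319 CPM in the *K-Ctrl* tumors and 2616, 3165, 2139 and 2187 CPM in the *K-Setd2KO* tumors (log2 fold change 0.29 with SE 0.172, edgeR adjusted p = 0.285). Replicates 1 and 2 of *K-Setd2KO* were above all controls and replicates 3 and 4 among them. *Eef2k*, the kinase that inhibits eEF2, was low and variable, at 15.6, 11.3, 16.02 and 9.91 CPM in the *K-Ctrl* tumors and 11.5, 9.10, 10.2 and 27.7 CPM in the *K-Setd2KO* tumors, and its 95% interval of -0.70 to 0.95 was the widest of the members. Of the enzymes that methylate eEF1A and eEF2, *Eef2kmt* had a log2 fold change of 0.28, *Eef1akmt2* 0.16 and *Eef1akmt1* -0.32, none called. *Eef1akmt3* had 3 to 21 counts per tumor and was not tested.

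The members spanned a wide range of levels. Per kilobase of exon, *Eef1a1* stood at 2935 CPM on the mean of the 8 tumors, *Eef2* at 740.5, *Eif3h* at 218, *Eef1b2* at 181 and *Eif1* at 151, down to 1.88 for *Eef2k*, a 1563-fold range. The eIF2B subunits and eIF2 kinases, which act on other factors, lay near the low end, at 2.25 to 12.8 CPM per kilobase. Members of other groups lay in the same range, among them *Eif4e* at 11.2 and *Eif3j2* at 7.03. The median level of the tested members was 76.0 CPM against 20.3 CPM for all tested genes. Reads of *Eef1a1* are partly uncertain, since 41.7% of its 75-base windows occur in other genes, mostly processed copies, and the same held for 56.5% of *Eef1g*, 27.7% of *Eif4a1* and 25.6% of *Eif1*. In all, 9 members shared over 20% of their windows and 28 shared none. The spans of 20 members overlap a gene on the opposite strand, and whether counting used the read strand is not given in the sources used here.

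**Figure D3:**
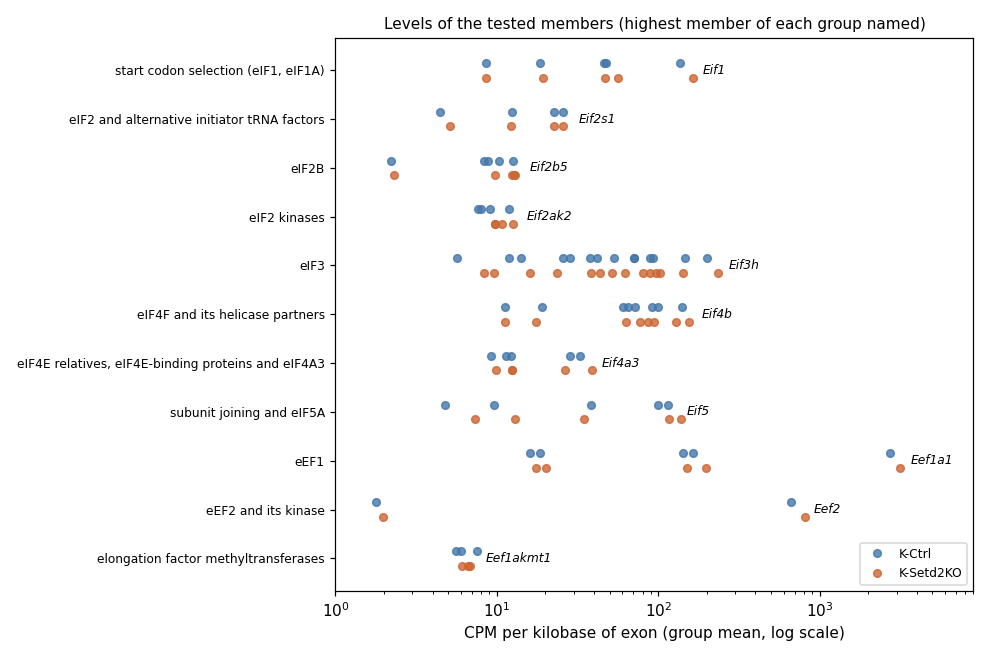
Level of each tested member in CPM per kilobase of exon (log scale, mean of 4 tumors), blue for *K-Ctrl* and orange for *K-Setd2KO*, by complex, with the highest member of each complex named. *Eef1a1* and *Eef2* stand above all others, and the distance between genes is far larger than that between the groups.

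To set the complexes side by side within each tumor, log2 CPM was centered per gene and averaged over members. Over all 60, the average was -0.073 ± 0.039 in the controls and 0.073 ± 0.082 in the *K-Setd2KO* tumors (SD, n = 4 each), 0.15 apart, and the groups did not overlap, although *K-Setd2KO* replicate 3 (-0.0085) and *K-Ctrl* replicate 4 (-0.015) were almost level. The averages did not overlap either for eIF2B (difference 0.22) and the eIF2 kinases (difference 0.24). Taken singly, 2 of the 5 eIF2B genes and 1 of the 4 kinase genes did not overlap, the called *Eif2b1* and *Eif2ak4* among them. How often averages of so few genes do not overlap among all genes was not measured. The averages overlapped for the other 9 complexes. For eIF3 the overlap came from *K-Ctrl* replicate 4 at 0.053 and *K-Setd2KO* replicate 4 at -0.062. Since the family was picked with earlier results known, these averages are a description without a test. As a share of all counts, the 64 members took 1.85% ± 0.080 (range 1.75% to 1.95%) in *K-Ctrl* and 2.04% ± 0.186 (range 1.85% to 2.27%) in *K-Setd2KO*, which overlapped.

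**Figure D4:**
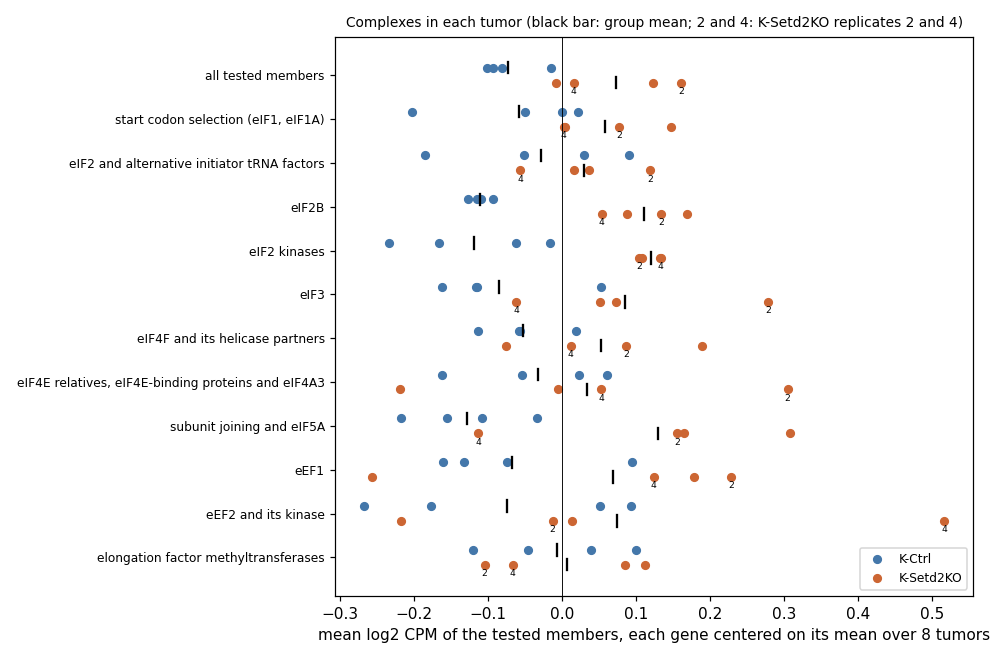
Mean centered log2 CPM of the tested members of each complex in every tumor, blue for *K-Ctrl* and orange for *K-Setd2KO*, with a black bar for the group mean and replicates 2 and 4 of *K-Setd2KO* numbered. The 2 groups are apart for all members, eIF2B and the eIF2 kinases and overlap in the other rows.

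The lean toward *K-Setd2KO* was uneven among its tumors. *K-Setd2KO* replicate 2 was the highest of the 8 tumors for 25 of the 60 members, against 14.9% of all tested genes, and replicates 1, 3 and 4 for 10, 9 and 6. In all, 50 of 60 members peaked in a *K-Setd2KO* tumor, against 57.7% of all genes. The lowest value also fell in a *K-Setd2KO* tumor for 27 of the 60 (57.7% of all genes), with 12 in replicate 3, 9 in replicate 4, 5 in replicate 2 and 1 in replicate 1. The members were also less uniform in *K-Setd2KO*. The SD of log2 CPM was larger in *K-Setd2KO* than in *K-Ctrl* for 50 of the 60 (66.0% of all genes), with medians of 0.23 and 0.14 among members and 0.35 and 0.26 among all genes.

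Of the members, 9 are counted here as TOP mRNAs, the class whose translation mTORC1 favors: *Eef1a1*, *Eef1b2*, *Eef1d*, *Eef1g*, *Eef2*, *Eif3e*, *Eif3f*, *Eif3h* and *Eif4b*. RefSeq start-site sequences were given for 5 of them. They are shown to let the terminal tract be seen, as the 15 bases before and the 15 after each listed start, 5′ to 3′ on the strand of the gene, with capitals for a C followed by at least 4 bases of C or T that begins within 10 bases of the start:
*Eef1a1*, chr9:78481710-78481739: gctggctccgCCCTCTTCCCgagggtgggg
*Eif3f*, chr7:108934400-108934429: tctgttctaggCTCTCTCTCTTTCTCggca
*Eef1b2*, chr1:63176816-63176845: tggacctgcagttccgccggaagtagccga
*Eef2*, chr10:81176616-81176645: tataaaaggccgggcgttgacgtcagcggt
*Eif4b*, chr15:102073758-102073787: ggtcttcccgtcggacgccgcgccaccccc
Such a tract was found in 2 of the 5 at these listed starts. It lay at 29.7% of all 32851 start sites and at 29.7% of the member start sites, so this search did not set the members apart. All 9 TOP members had log2 fold changes above 0 and 0 were called by edgeR, with 0 at an unadjusted p under 0.05, and the median was 0.21. *Eif3f* was at 204, 200.4, 182 and 227 CPM in the *K-Ctrl* tumors and 232, 349, 267 and 174 CPM in the *K-Setd2KO* tumors (log2 fold change 0.33 with SE 0.197, edgeR adjusted p = 0.295), and *Eif3e* had a log2 fold change of 0.071. The average over the 9 in each tumor overlapped between the groups, and *K-Setd2KO* replicate 2 alone, at 0.38, exceeded every control by a wide margin.

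Genes that work with the members were summarized from lists written from general knowledge. Over all tested genes 4.97% were called higher and 7.74% lower, against which the counts of these short lists are to be read. Of 10 TOP mRNAs outside the members, 2 were called higher and 0 lower, with a median of 0.25: *Rpl3*, a large subunit protein, rose from 463 ± 44.99 to 709 ± 82.7 CPM (log2 fold change 0.62, edgeR adjusted p = 0.0220), and *Rps6*, a small subunit protein and target of the S6 kinases, from 289 ± 8.60 to 373 ± 20.96 CPM (log2 fold change 0.37, edgeR adjusted p = 0.0464; SD, n = 4 each). Of 15 genes that feed eIF4F or bind the poly(A) tail, 1 was called higher and 0 lower, with a median of -0.012, and at an unadjusted edgeR p under 0.05 it held 2 higher and 2 lower (13.6% and 16.3% of all genes). The called gene was *Paip1*, which links the poly(A)-binding protein to eIF4A, at 114, 129, 136 and 123 CPM in the *K-Ctrl* tumors and 198, 179, 207 and 182 CPM in the *K-Setd2KO* tumors (log2 fold change 0.61 with SE 0.107, edgeR adjusted p = 0.0112). Every *K-Setd2KO* tumor was above every control. The reverse held for *Mknk1*, a kinase of eIF4E (log2 fold change -0.43, edgeR adjusted p = 0.0592), and *Cyfip1*, an eIF4E-binding repressor (log2 fold change -0.29, edgeR adjusted p = 0.0951), neither of which was called. None of 9 genes of the eIF2 phosphorylation cycle was called by edgeR, and at an unadjusted p under 0.05 it held 0 higher and 1 lower. The smallest p there was that of *Nck1*, an adaptor that binds eIF2 and its phosphatase, at 87.7 ± 16.1 CPM in the *K-Ctrl* tumors and 62.9 ± 10.98 CPM in the *K-Setd2KO* tumors (log2 fold change -0.48, edgeR adjusted p = 0.0980), and *Atf4*, the transcription factor translated when eIF2 is phosphorylated, had a log2 fold change of 0.33 (edgeR adjusted p = 0.225). None of 7 scanning and recycling helpers, 9 hypusine and diphthamide enzymes and 6 mitochondrial initiation and elongation factors was called, with 0 at an unadjusted edgeR p under 0.05, and their medians were 0.047, 0.059 and -0.12. The smallest p in these 3 lists belonged to *Denr* (0.29), *Dnajc24* (-0.40) and *Mtif3* (0.19). Among the mitochondrial factors 1 of 6 had an estimate above 0.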

How the data were processed

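The deposited data are raw integer read counts, not normalized by the authors, of 48709 genes in 8 tumors. The submitters' processing notes name STAR 2.5.2b, featureCounts 1.5.0-p1 and the build GRCm38.p4. The annotation release and the strand setting of counting are not given in the sources used here, while the library kit was stranded and selected poly(A) RNA. The table's Length column, the summed exon length, gave levels per kilobase. Symbols came from GENCODE M21, which held 99.3% of the identifiers.

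Counts were fitted in R 4.3.3 with edgeR 4.0.16 (filterByExpr, TMM, robust quasi-likelihood, genotype only), with Benjamini-Hochberg adjustment over 14929 genes and a threshold of 0.05, and checked on simulated data. SE is the absolute log2 fold change over the square root of F. The study compared genotypes with DESeq2, run here as version 1.42.0, beside limma 3.58.1. CPM used the TMM-scaled library size, and per-tumor averages a prior count of 2. With totals of 5806599 to 21290402, 3 counts equal 0.138 to 0.513 CPM. Intervals of members had a median width to either side of 0.34 on the log2 scale.

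The members and lists were chosen with earlier results of these data known. The genes named by rule are the called members, the member of each complex with the smallest p and that with the highest level per kilobase, the 9 TOP members, the gene of each list with the smallest p, and *Setd2*. Any other gene was named after its values were seen. Of the written lists, *Gcn1*, *Eef1akmt4* and *Eef1aknmt* were not found under those symbols. A planned comparison of protein sequences was replaced by shared 75-base windows of GENCODE M21 transcripts. Alternatives comprised size factors, tests, filters, length and GC content, sex, the replicate block and each tumor left out.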

Additional observations from a re-analysis of the deposited data

Results flagged for a closer look

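The 60 tested members, *Setd2* and 13 averages over member groups were examined in each group of 4 tumors. In 9 of these 148 sets of 4 values, 1 tumor lay far from the others by Dixon's ratio of its gap to the group's range, where chance would give about 7.4. In *K-Ctrl* replicate 4, *Eif2ak3* was at 55.3 CPM against 44.8 to 45.7 CPM in replicates 1 to 3, *Eif3b* at 372 CPM against 272 to 278.4 CPM, *Eif3d* at 61.9 CPM against 44.1 to 45.0 CPM, and *Eif4h* at 439.1 CPM against 334.7 to 339.8 CPM. In *K-Ctrl* replicate 2, *Eef1akmt2* was at 9.58 CPM against 10.8 to 10.9 CPM in the other three. In *K-Setd2KO* replicate 2, *Eif3h* was at 383.8 CPM against 262.2 to 274.5 CPM in the other three, and *Eif4enif1* at 116.1 CPM against 63.8 to 69.2 CPM. In *K-Setd2KO* replicate 4, *Eef2k* was at 27.7 CPM against 9.10 to 11.5 CPM in the other three, and *Eif3m* at 90.03 CPM against 117.9 to 121.4 CPM.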

How the results depend on the processing

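The number of members called higher, 3 as reported, was 5 with the DESeq2 Wald test (21.5% of all genes called in either direction, against 12.7% as reported), 0 with no filter on low counts (5.71%), 1 with sex as a term (8.29%), 0 with the replicate block (8.98%) and 0 to 3 when 1 tumor was left out (5.09% to 13.6%). No setting called a member lower. The median log2 fold change of the members stayed at 0.10 to 0.19 with 1 tumor left out. The replicate numbers did not pair the tumors: deviations of same-numbered tumors from their group means correlated at -0.074, -0.030, 0.191 and -0.023, and only replicate 3 matched its own number best. The block lowered all calls from 1897 to 1341. Of 561 values of 33 named genes, 501 kept their direction and side of the threshold, 28 lost the call, 3 gained it and 29, in 8 genes, changed sign. *Eif4e* went to -0.0019 with the DESeq2 Wald test, -0.0015 with its size factors, -0.031 with at least 10 counts in every tumor, -0.080 with limma voom, -0.050 with the replicate block and -0.10 with the sex term. With the sex term *Eef1g* went to -0.15, *Eif2s1* to -0.14 and *Eif2ak2* to -0.14, and *Eif2s1* went to -0.021 with at least 10 counts. *Setd2* went to 0.10 after removal of length and GC trends. With 1 tumor left out the ranges were -0.025 to 0.22 for *Eef1d*, -0.042 to 0.29 for *Eef1g*, -0.049 to 0.10 for *Eif2s1*, -0.020 to 0.20 for *Eif2ak2*, -0.015 to 0.095 for *Eif2b5*, -0.027 to 0.17 for *Eif3e* and -0.21 to 0.13 for *Eif4e*. Of 187 complex medians, 13 moved by more than the spread and 12 fell below 0. The causes were not tested. With 4 tumors a group and a common biological coefficient of variation of 0.337, the called members passed at edgeR adjusted p of 0.0338 to 0.0455, and 4 members had too few counts for a test.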
